A study of Drosophila melanogaster with 2 samples.

Results

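The ush and cbt locus of Drosophila melanogaster lies on chromosome arm 2L. ush (FBgn0003963) spans 476220 to 540560 on the plus strand in the dm6 genome build, and cbt (FBgn0043364) is nested in it from 476446 to 479688 on the minus strand. The locus was selected on its signal, since it holds the strongest peak of this data set, and its members were taken as all regions with a summit inside ush or within 5 kb of it, from 471220 to 545560. That gave 46 of the 30000 regions in the pooled relaxed list, a list that keeps weak background regions on purpose. Of these, 13 were among the 2712 thresholded peaks, the list cut by the irreproducible discovery rate. Being in that list does not show that a given peak was reproducible between replicates 1 and 3. The replicate lists of 30000 regions each held 47 members in replicate 1 and 52 in replicate 3.

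The data came from chromatin immunoprecipitation and sequencing (ChIP-seq) of the CG11398 protein, whose gene (FBgn0040366) lies on X. Both libraries were from whole embryos of mixed sex, aged 0 to 24 h, of 1 transgenic line that stably expresses CG11398 with eGFP at its C terminus, and chromatin carrying it was recovered with an anti-GFP antibody. Sonication was used to break the chromatin. They form 1 group of 2 biological replicates, numbered 1 and 3, with no second genotype, treatment or time. Cells of all types and ages in the collection were averaged. A control was not analysed here, and read depth is unknown. No test was run on the members, because the locus was chosen from these same peaks. The values are descriptions. The 13 peaks are given per replicate, a value with no list named is from the pooled list, and signal is the score per region as the authors deposited it.

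ush (u-shaped) encodes a zinc-finger protein of the Friend of GATA family, a cofactor that binds GATA transcription factors such as Pannier and Serpent. It is known for its roles in germ-band retraction, in the amnioserosa, in blood cells and in the pattern of thoracic bristles. cbt (cabut) encodes a zinc-finger transcription factor of the TIEG family, known for its role in dorsal closure downstream of JNK signalling and for its response to dietary sugar. Transcripts of ush start at 4 annotated transcription start sites (TSSs), at 476220 (ush-RD and ush-RE), 490835 (ush-RB), 523466 (ush-RA) and 523736 (ush-RC). The 3 transcripts of cbt share a single TSS at 479688, so cbt lies within the first 3469 bp of ush and is read towards the first start of ush.

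The sequences around the 5 strongest summits and around the peak 44.6 kb into ush are given because they carry most of the signal of the locus or, in the last case, a site at the summit itself. Each reaches 75 bp to the left and to the right of its summit, plus strand, 5′ to 3′, from the RefSeq Release 6 genome (dm6). Capitals mark matches on either strand. The sites were the GATA sites AGATAA or else TGATAA, the E-box CACGTG, the GAGA repeat GAGAGAG, the Forkhead core TGTTTAC and the Dref element TATCGATA. Also marked were the homeodomain core TAATTA, the other E-box CATATG, the AP-1 site TGANTCA, the Mad site GCCGNCGC and the Zelda site CAGGTAG.
Strongest peak, 4.87 kb into ush (chr2L:481012-481162): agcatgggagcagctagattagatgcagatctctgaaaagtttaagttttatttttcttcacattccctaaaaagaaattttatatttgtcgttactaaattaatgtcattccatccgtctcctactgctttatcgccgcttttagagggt
Peak before cbt, 3.82 kb into ush (chr2L:479964-480114): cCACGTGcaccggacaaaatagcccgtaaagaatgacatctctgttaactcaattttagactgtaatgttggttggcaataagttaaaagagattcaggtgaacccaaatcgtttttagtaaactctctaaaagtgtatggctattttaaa
Peak 9.64 kb into ush (chr2L:485788-485938): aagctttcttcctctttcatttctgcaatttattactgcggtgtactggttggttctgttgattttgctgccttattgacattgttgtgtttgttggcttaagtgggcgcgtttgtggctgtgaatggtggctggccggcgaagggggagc
Peak 3.78 kb before ush (chr2L:472365-472515): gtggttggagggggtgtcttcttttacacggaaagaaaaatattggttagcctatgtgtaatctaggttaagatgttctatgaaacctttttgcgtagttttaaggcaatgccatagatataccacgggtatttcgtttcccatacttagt
Peak 34.5 kb into ush (chr2L:510629-510779): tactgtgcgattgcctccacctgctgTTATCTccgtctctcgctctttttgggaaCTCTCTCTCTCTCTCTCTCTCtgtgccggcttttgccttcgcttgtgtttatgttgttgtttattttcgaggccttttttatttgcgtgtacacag
Peak 44.6 kb into ush (chr2L:520782-520932): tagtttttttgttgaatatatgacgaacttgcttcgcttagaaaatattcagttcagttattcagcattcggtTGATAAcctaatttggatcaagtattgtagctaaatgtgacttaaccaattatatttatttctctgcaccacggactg

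The strongest summit thus had none of these letters within 75 bp. It had 35.1% G and C over the 151 bp printed. Within 100 bp of the summit it had 40.3%, beside a median of 38.3% over all thresholded peaks. The peak before cbt carried CACGTG at the far left of its window. In the peak 34.5 kb into ush, the capitals mark a GATA site on the minus strand and a long CT run that holds the GAGA repeat on the minus strand. In the peak 44.6 kb into ush, TGATAA began 2 bp before the summit.

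The densest group of peaks lay around the start of cbt, which is itself within the first 3469 bp of ush. The start of cbt and the first start of ush are so close that a radius of 5 kb around either would hold both. The group is thus not assigned to one of the genes. Within 2500 bp of the TSS of cbt there were 4 thresholded summits, spread over 2083 bp. The first annotated start of ush had no thresholded summit closer than 2784 bp. The stretch from the start of cbt to the start of ush-RB, 11146 bp of intron and of an exon of ush-RE, held 5 of the 13 peaks, the strongest one included. The main coding exons of ush, from 536023 to its end, held none.

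**Figure D1:**
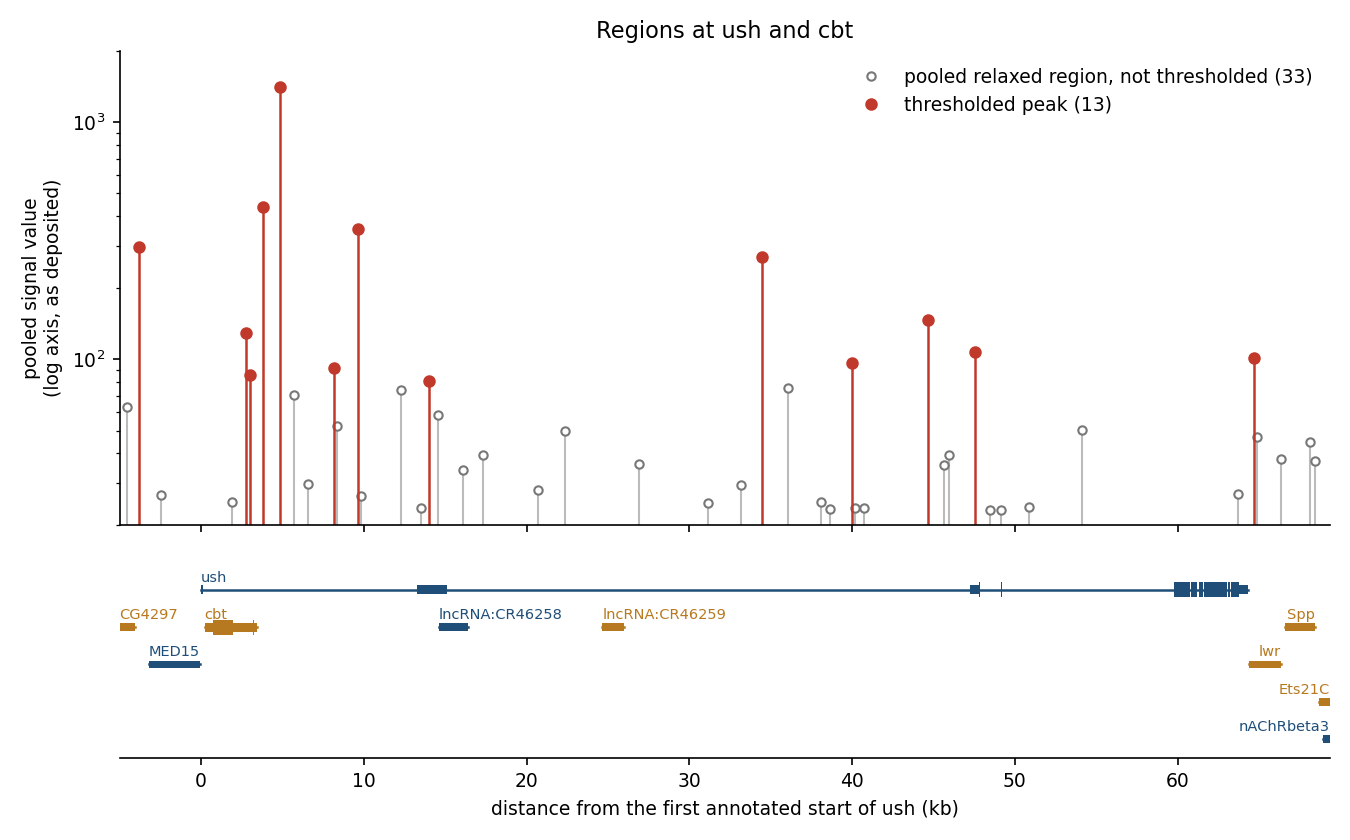
Upper panel: signal value of each pooled region (log axis) against its distance from the first annotated start of ush in kb, with filled points for the 13 thresholded peaks and open points for the 33 other relaxed regions. Lower panel: annotated genes, blue on the plus strand and ochre on the minus strand, with coding exons of ush and cbt as tall boxes. The strongest peak stands 4.87 kb into ush, just beyond cbt, and no thresholded peak lies over the block of coding exons at the right end of ush.

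The strongest peak (2L, 480866 to 481301) had its summit at 481087, in the long first intron of ush and 1399 bp upstream of the TSS of cbt. Its signal was 1410 in the pooled list, 827 in replicate 1 and 589 in replicate 3. The next thresholded peak of the genome was close to it, with 1326. The strongest peak ranked 1 in replicate 1, where the next region had 682, and 4 in replicate 3, where the highest region had 663. The summits in both replicates were 4 bp apart. At the low end of the signals, the weakest thresholded peak (summit 490228) had a signal of 80.9, with 45.5 in replicate 1 and 38.5 in replicate 3. Thresholded signals over the genome lay between 79.8 and 1410, and their median was 115.1.

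Of 13 sites searched within 50 bp of the summits, 9 were found at none of the 13 peaks. Over all thresholded peaks, these 9 had shares from 0.369% (the Zelda site) to 8.74% (the GT box), with 5.38% for the Forkhead core and 6.56% for the homeodomain core. Their letters were absent from these windows, which says nothing of the factors. AGATAA was found at 2 peaks (2.78 kb and 34.5 kb into ush), beside 6.86% of all thresholded peaks. TGATAA was found at 1 peak, beside 8.67% of all thresholded peaks, and the GAGA repeat at 1, beside 2.40%. CACGTG was found at 1 (2.99 kb into ush, in the 5′ UTR of cbt), beside 1.18%. With 13 peaks, counts of 0 to 2 cannot be set apart from these shares. The GAGA repeat and the Zelda site were added to the search after the CT run had been seen in the sequence. The 2 sites searched beside those listed with the sequences were CACCC (a GT box) and a run of 8 A.

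The group of peaks at cbt is described first. The peak before cbt (summit 480039) stood 351 bp upstream of its TSS, with a signal of 437 in the pooled list, 235 in replicate 1 and 205 in replicate 3. It ranked 64 in the thresholded list, 64 in replicate 1 and 73 in replicate 3. It was the second strongest of the locus in each list. Its neighbour towards the inside of ush is the strongest peak, 1048 bp away.

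Inside cbt, a pair of peaks overlapped each other, with summits 684 bp and 480 bp downstream of the TSS, 204 bp apart, both in 5′ UTR sequence of cbt. The first had a signal of 129 in the pooled list, 104.9 in replicate 1 and 28.5 in replicate 3. The second had 85.9 in the pooled list, 67.6 in replicate 1 and the same region of replicate 3, 28.5. The replicates differed here. Replicate 1 had a region for each of the peaks, whereas replicate 3 had a single region whose summit was 265 bp from that of replicate 1 for the first peak and 62 bp for the second. That region ranked 4804 in replicate 3, outside its 2712 strongest, while those of replicate 1 ranked 444 and 1171.

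Around each of these 4 peaks, 4 thresholded summits lay within 2500 bp, the peak itself counted. In the whole list 25 of 2712 peaks (0.922%) had that many, these 4 included, none had more, and the median was 1. The count of 4 takes the overlapping pair inside cbt as separate peaks, although both matched a single region of replicate 3. The signals of the 4 peaks differed widely, from rank 1 to rank 2343 of the thresholded list within 2083 bp.

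Further into ush, 3 peaks stood between cbt and the start of ush-RB. The peak 9.64 kb into ush (summit 485863) was the third strongest of the locus, with 353 in the pooled list, 212 in replicate 1 and 137 in replicate 3. It was 4972 bp before the common start of ush-RB and lncRNA:CR46258. The peak 8.14 kb into ush (summit 484364) had 91.6, 60.3 and 41.6, and its summit in replicate 3 was 212 bp from that in replicate 1. The third was the weakest peak of the locus, 14.0 kb into ush and 607 bp upstream of the start of ush-RB, in the 5′ UTR exon of ush-RE. At that start itself, a relaxed region stood 45 bp upstream (summit 490790). It had a signal of 58.4 in the pooled list, 46.7 in replicate 1 and 29.4 in replicate 3, and was not thresholded.

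Between the start of ush-RB and that of ush-RA, 32631 bp, there were 3 thresholded peaks. The one 34.5 kb into ush (summit 510704) stood alone, 20476 bp from the thresholded peak before it, with 269 in the pooled list, 159.9 in replicate 1 and 104.2 in replicate 3. The peak 40.0 kb into ush (summit 516208) had 96.7, 51.8 and 42.2. The peak 44.6 kb into ush (summit 520857) had 146 in the pooled list, 63.6 in replicate 1 and 79.1 in replicate 3, and was the single peak of the 13 that was higher in replicate 3. It lay 2609 bp upstream of ush-RA, and its summits in the replicates were 93 bp apart.

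At the downstream starts of ush, a peak (2L, 523533 to 523948, summit 523741) stood in 5′ UTR sequence. Its summit was 5 bp downstream of the TSS of ush-RC, which the region held, and 275 bp downstream of that of ush-RA, which lay before the region. Its signal was 107.5 in the pooled list, 60.6 in replicate 1 and 44.0 in replicate 3, close to the median of the thresholded list. ush-RC and ush-RA were the transcripts of ush with a thresholded summit within 500 bp of their start. Of the 13 peaks, 4 (30.8%) had a summit within 500 bp of any annotated TSS, compared with 54.1% of all thresholded peaks. The 4 were at CG4297, cbt (before it and inside it) and ush. Of the others, 6 were in introns, 2 in 5′ UTRs and 1 in a 3′ UTR. A share below that of the whole list was also seen at the like loci compared below. Peaks within 500 bp of a TSS were 3 of 12 at CHES-1-like, 4 of 12 at kirre and rst, and 1 of 10 at sbb.

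The main coding exons of ush held few regions. From the first main coding exon to the end of the gene, 4538 bp, the pooled list had 1 region (signal 27.1), replicate 1 had 1 (23.4) and replicate 3 had 2 (at most 15.6). None was thresholded. The largest gap between neighbouring pooled summits of the locus, 9602 bp, ran from the intron before these exons into the last exon. The coding exons thus had 0.220 pooled regions per kb, resting on that 1 region and close to the 22.4 per 100 kb of the main arms. The stretch from cbt to ush-RB had 1.08 per kb.

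The flanks held the last 2 peaks. Before ush, a peak (summit 472440) stood between CG4297 and MED15, which encodes a subunit of the Mediator complex, 240 bp and 573 bp upstream of their TSSs. It had 297 in the pooled list, 164 in replicate 1 and 134 in replicate 3, and was number 4 of the locus by signal. After ush, a peak (summit 540880) was in 3′ UTR sequence of lwr, which encodes the SUMO-conjugating enzyme, 1700 bp downstream of its TSS. It had 100.8, 59.3 and 30.2, and ranked 4289 in replicate 3. The starts of lwr and of Spp, a signal peptide peptidase gene, each had a relaxed region within 50 bp (38.0 and 37.2 in the pooled list) and no thresholded peak. Of the genes that reach into the right flank, Ets21C, an ETS transcription factor gene, and nAChRbeta3, an acetylcholine receptor subunit gene, had no thresholded summit closer than 4249 bp to a TSS. Just outside the limits, the next thresholded peak was 409 bp beyond the left one (signal 161) and 18601 bp beyond the right one (83.2).

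The 33 pooled regions that were not thresholded had signals between 23.1 and 75.3. Their median was 33.9, beside 33.6 in the whole pooled list. The highest of them, 36.1 kb into ush (summit 512276), had 27.9 in replicate 1 and 42.8 in replicate 3, and ranked 3014 of 30000. It stood just outside the threshold, and the peak 14.0 kb into ush, at 80.9, just inside. Of the 46 regions, 28.3% were thresholded, compared with 9.04% of the whole pooled list, a difference that the choice of the locus sets. Of the 33, 4 overlapped a thresholded peak as its neighbour.

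The replicates put the strongest peaks of the locus in the same order. The 5 highest peaks were the same in replicate 1, in replicate 3 and in the pooled list, in the same order, and the pooled list shares its reads with both replicates. Below them the order differed, since the sixth was the peak 2.78 kb into ush in replicate 1 and the peak 44.6 kb into ush in replicate 3. Among the 13 peaks, 12 (92.3%) matched a region among the 2712 strongest of replicate 1, compared with 82.0% of all thresholded peaks. In replicate 3, 9 (69.2%) did, compared with 82.4%. The peak 14.0 kb into ush missed in both, at rank 2724 in replicate 1 and 2713 in replicate 3. The others outside the top of replicate 3 were the pair inside cbt and the peak at lwr.

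**Figure D2:**
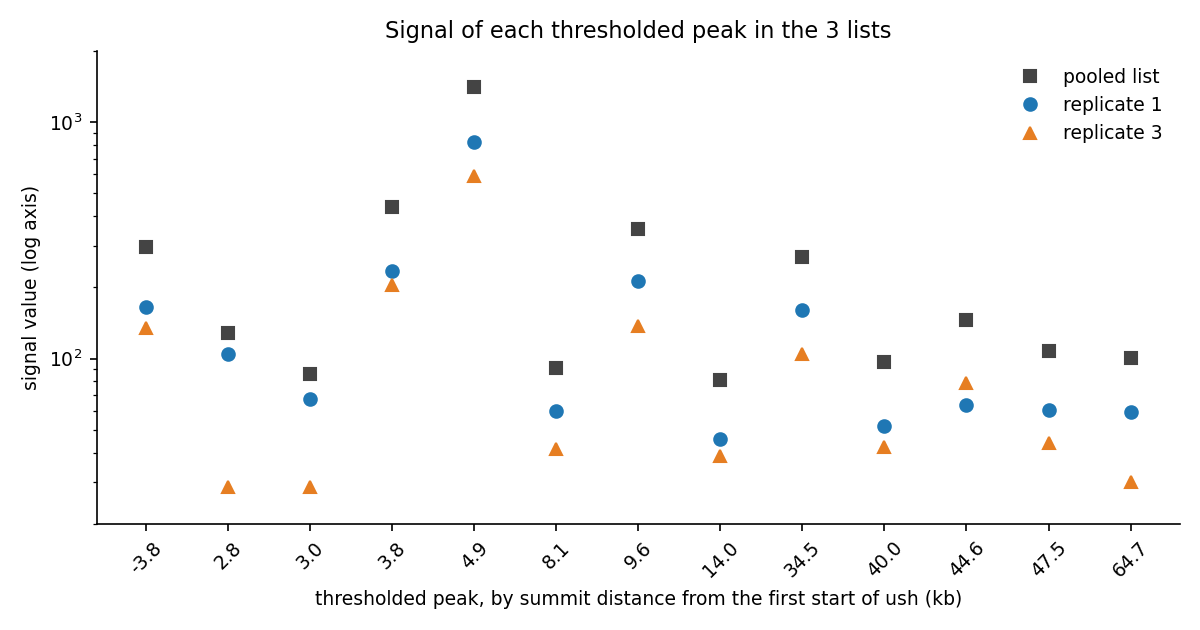
Signal value (log axis) of each of the 13 thresholded peaks in the pooled list (squares), replicate 1 (circles) and replicate 3 (triangles), ordered by distance of the summit from the first start of ush in kb. The replicates lie furthest apart at the pair inside cbt, where replicate 3 had 28.5.

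Signals were higher in replicate 1 over most of the locus. The log2 ratio of the replicate 1 to the replicate 3 signal had a median of 0.49 over the 13 peaks, from -0.31 to 1.88, beside a median of 0.18 (SD 0.56) over all 2712. The ratio was above the median of the whole list at 12 of the 13 peaks. At the peak 2.78 kb into ush, inside cbt, it was 1.88, and 12 of 2712 peaks, itself included, had a ratio that high. Its replicate 3 value is that of the region also matched to the peak 2.99 kb into ush. The summits matched to it in the replicates were 265 bp apart, so the ratio may not compare the same site. The peak 2.78 kb into ush was the single peak of the 13 (7.69%) more than 2 SD from the median, compared with 4.83% of all thresholded peaks. Signal values have no stated normalization between the replicates, so the ratio is read only beside those of other peaks in the same lists. At the like loci compared below, its median was 0.19 at CHES-1-like, 0.05 at kirre and rst, and 0.45 at sbb.

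**Figure D3:**
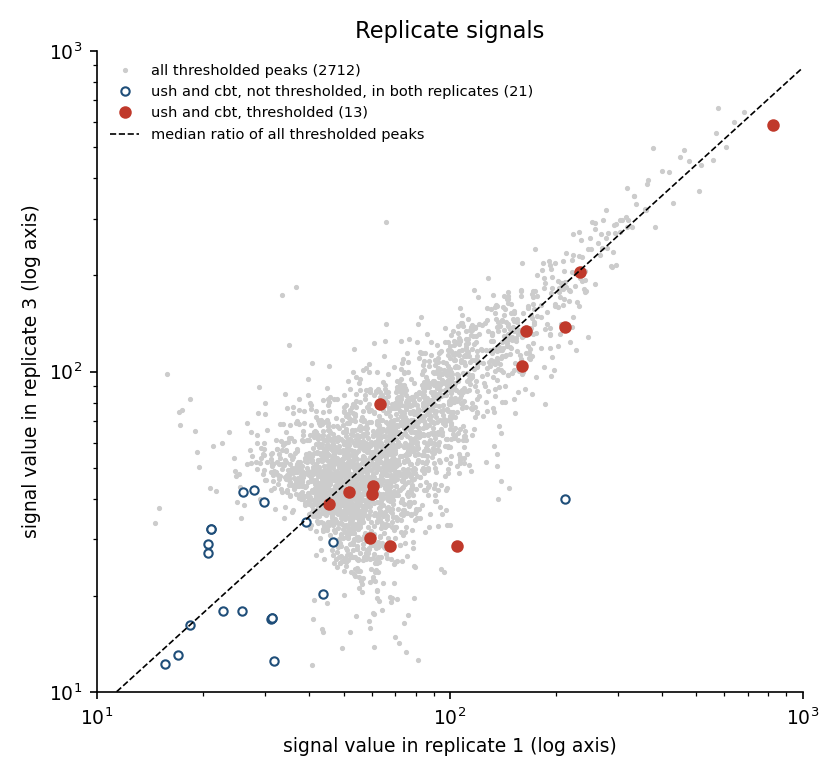
Signal value in replicate 3 against replicate 1 (both axes log) for all 2712 thresholded peaks in grey, the 13 of the locus as filled points, and the 21 other pooled regions of the locus matched in both replicates as open points. The dashed line is the median ratio of all thresholded peaks. Most filled points lie below it. The open point at 212 and 40.1 is a weak neighbour of the peak 9.64 kb into ush and shares that peak's region in replicate 1.

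Compared directly, without the pooled list, 34 of the 47 replicate 1 regions of the locus (72.3%) overlapped a replicate 3 region, beside 59.9% of all replicate 1 regions. In the other direction it was 32 of 52 (61.5%), beside 57.3%. Spearman's rho of the signals was 0.644 over the 34 pairs of the locus and 0.509 over the 17958 pairs of the whole lists. The pairs share their libraries and neighbouring regions, so this is a description. The locus was also chosen on its signal, so its higher shares and rho are not read as a trait of it. Regions seen in a single replicate were weak, with at most 28.2 in replicate 1 (rank 7502) and 26.1 in replicate 3 (rank 5834).

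The spacing of the peaks is a description, since the locus was chosen for them. Neighbouring thresholded summits were 204 to 20476 bp apart, with a median of 3821 bp, beside 17876 bp over the whole list, where 20.8% of gaps were no longer than 3821 bp. The locus had 17.5 thresholded peaks per 100 kb, and the main arms 2.03. For all pooled relaxed regions it had 61.9 per 100 kb, and the main arms 22.4. When the arms were cut into 1799 consecutive windows of the same 74.3 kb, the median window held 1 thresholded summit and 3 windows held 13, the highest count.

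The summits of the locus varied in base composition. Within 100 bp of the summit, G and C made up 31.8% to 55.2%, with a median of 43.3%, beside 38.3% over all thresholded peaks and 46.8% at the 33 other regions of the locus. The lowest was the peak 44.6 kb into ush, and the highest the peak inside cbt 480 bp from its TSS. In width, 10 peaks had the 416 bp that most of the list has and their summit at the midpoint. The peaks 3.82, 4.87 and 9.64 kb into ush, the 3 strongest, were 252, 436 and 216 bp wide. In the whole list 320 peaks (11.8%) had a width other than 416 bp, with a median signal of 304 against 108.

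Among 1039 annotated genes of at least 20 kb, ush had 11 thresholded summits inside its span and ranked 4, tied with kirre. Most of those genes (656) had none. The genes most like ush in number of summits, and then in length, were kirre (11 in 394149 bp), CHES-1-like (12 in 27048 bp), CG1677 (13 in 124709 bp), Raf (9 in 48405 bp) and sbb (9 in 79099 bp), taken over the pooled thresholded list. kirre encodes a cell adhesion protein of myoblast fusion, CHES-1-like a forkhead factor, Raf a MAP kinase kinase kinase and sbb a corepressor. lncRNA:CR44357, which overlaps CG1677, had the most (15). Per 10 kb, ush had 1.71 summits, and 3 genes had more, CHES-1-like (4.44), Raf (1.86) and pico (1.83).

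**Figure D4:**
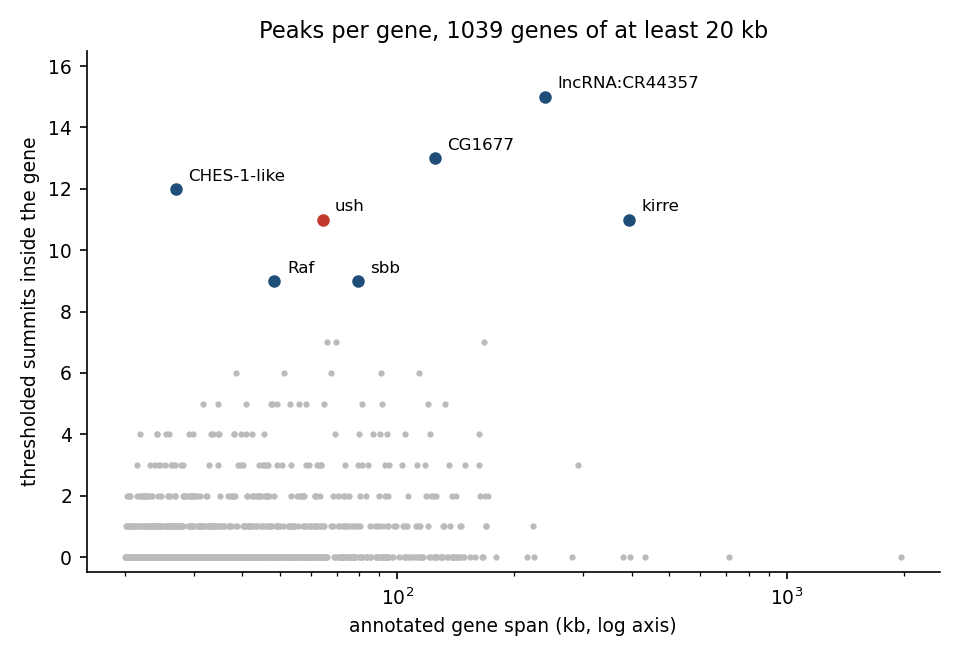
Number of thresholded summits inside each of 1039 genes of at least 20 kb against the annotated gene span in kb (log axis). Genes with 9 or more summits are named, with ush in red at 11 summits in 64.3 kb.

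The strongest peaks of like loci are set beside those of ush and cbt without a test. With 5 kb added on either side, the CHES-1-like locus had 12 peaks with at most 231, the kirre and rst locus 12 with at most 325, and the sbb locus 10 with at most 251. ush and cbt had 13 with 1410 as the highest, but a median of 129, beside 116, 100.2 and 105.5 in the order just given. Their median spacings were 1393, 22358 and 4055 bp, beside 3821 bp at ush and cbt. Raf and CG1677, also among the genes most like ush, were not compared as loci. The highest thresholded signals inside their gene spans were 510 and 408.

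Genes of pathways and processes around ush and cbt were looked up in 4 lists, which were drawn up with earlier results of these data known. A listed gene need not be a partner or target of the ush and cbt proteins. A member counted if it had a thresholded summit within 500 bp of a TSS, as did 12.6% of the 13945 protein-coding genes. Of 16 genes listed around GATA factors and the Friend of GATA family, 1 did, ush itself. Among the GATA factors that ush is known to bind, pnr, which encodes Pannier, had no thresholded summit in the gene or within 5 kb, and srp, which encodes Serpent, had 1 there (84.1). Of 22 genes of Dpp signalling, the BMP pathway of the fly, 2 did. They were emc (162 in the pooled list, 93.7 in replicate 1 and 70.5 in replicate 3), which encodes a helix-loop-helix repressor, and shn (155, 101 and 54.4), which encodes the zinc-finger protein Schnurri.

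Of 16 genes of JNK signalling and dorsal closure, 7 did (43.8%), and 6 of 15 without cbt. The 5 highest were cbt (437), jar (163, with 95.4 in replicate 1 and 73.4 in replicate 3), chic (119, 69.3 and 49.4), scb (105.2, 74.8 and 31.5) and puc (104.5, 56.4 and 39.8). They encode Cabut, myosin VI, profilin, an integrin alpha subunit and the JNK phosphatase Puckered. mys had 99.2, with 54.0 in replicate 1 and 46.3 in replicate 3, and msn had 84.3, with 49.1 and 30.6. Of 14 genes of sugar sensing, 4 did, or 3 of 13 without cbt. These were cbt, bigmax (96.1, 43.3 and 58.0), FASN1 (93.6, 60.5 and 40.8) and Mondo (82.6, 40.9 and 42.1). Mondo and bigmax encode the partners of the sugar-responsive Mondo-Mlx factor, and FASN1 a fatty acid synthase. Apart from cbt, no member of these lists reached the signal of the 5 strongest peaks of the locus at its promoter. Those peaks, however, were taken at any position in the locus. In the gene or within 5 kb, gbb (565), Med (446) and Mad (289) of the Dpp list exceeded the fifth of them (269). Counted anywhere in the gene or within 5 kb, 8 of the 16 GATA genes, 14 of the 22 Dpp genes, 12 of the 16 JNK genes and 6 of the 14 sugar genes had a thresholded summit, beside 34.0% of protein-coding genes. Long genes have more room for a summit under that rule, and no allowance was made for length.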

How the data were processed

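Peak lists from the ChIP-seq of 2 biological replicates in 1 group were analysed in dm6. The deposited notes trace every list to alignments and a control, and pooled lists to both libraries. For the aligner and the peak caller, names and versions were not given in the sources used here. Signal was taken as the authors deposited it, without normalization, and used for ranks and levels inside each list. The deposited -log10 of the q-value was not used for ranking. Summits came from the deposited offset. Depth is unknown, since no read counts are listed. The dm3 lists were not used here.

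Each pooled region was matched to the replicate region that shares the most bases with it (at least 1 bp). Genes were those of Ensembl release 115 on 6 arms. hnt is listed as peb, and scab was replaced by its annotated symbol scb after the first results. Protein-coding genes replaced all 18164 genes as the background after the first results (1920 genes, or 10.6%, under the earlier choice). Python 3.11.15 and numpy 2.4.6 were used. Overlap of the replicate lists was checked with bedtools 2.31.1, and the overlap and site searches were tested on simulated data.

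Genes named are ush, cbt and those overlapping the window, up to 5 members of each list by signal, the 5 genes nearest ush in number of summits, and members of counts of 5 or fewer. pnr, srp, mys, msn, gbb, Med, Mad and lncRNA:CR44357 were named after their values were seen. Members, lists, sites, the compared loci, the 2500 bp neighbourhood and the consecutive windows were chosen with earlier results of these data known.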

Additional observations from a re-analysis of the deposited data

How the results depend on the processing

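No paired analysis was possible because there is 1 group. With the stronger 50% of thresholded peaks, 7 peaks of the locus remained, and promoter counts were 0 for GATA factors, 3 for JNK and 1 for sugar sensing, where the share of protein-coding genes with such a peak was 6.60%, down from 12.6%. With a promoter limit of 200 bp, 1 peak of the locus was at a promoter. The share of all thresholded peaks within 200 bp of a TSS is not given here, so the lower count is not read as a trait of the locus. With 100 bp around the summit, CACGTG was at 2 peaks, the GT box at 3 and the GAGA repeat at 2, the last an alternative added after seeing the data. A wider search finds more sites at any peak. Shares over all thresholded peaks at 100 bp are not given here, so nothing about the locus is read from these counts. With a promoter limit of 1000 bp, 3 of 16 GATA genes and 4 of 22 Dpp genes had a peak, beside 14.7% of protein-coding genes. Anywhere in the gene or within 5 kb, it was 8 GATA, 14 Dpp and 12 JNK genes, beside 34.0%. Taking the 2712 strongest regions of a single replicate, the count for GATA factors was 1 to 2 and for sugar sensing 2 to 5, beside 11.8% (without replicate 3) and 12.96% (without replicate 1) of protein-coding genes. The rank of ush by summits was 2 without replicate 3 and 3 without replicate 1, and the rank of the strongest peak was 1 and 4. The causes were not tested. Without a flank the locus had 11 peaks, and with 10 kb it had 15. With replicate summits required within 100 bp, 11 of 13 peaks had a ratio, with a median of 0.46. Unknown depth limits all of these values, and 2 libraries give no estimate of error for a single region.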
